A study of Mus musculus with 30 samples.

Results

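The solute carrier genes were followed through the accessible chromatin of mouse natural killer (NK) cells. They were taken as every peak of the table whose assigned gene symbol begins with Slc followed by a digit, leaving out Slc2a1, Slc2a3, Slc16a1, Slc16a3, Slc7a5, Slc3a2, Slc38a1 and Slc1a5, 8 carriers of glucose, lactate and amino acids. The rule used gene names only and no measured value. It gave 587 of 38526 peaks and 261 of 14886 genes. The assay was ATAC-seq: a transposase inserts adapters into open DNA, and reads are then counted over each peak. NK cells had been grown for 5 days in IL-2 and an IL-15 complex with its receptor alpha chain, and were then treated for 5 h in all.

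There were 30 libraries in 8 groups. Wild-type (WT) cells came from C57BL/6J mice. Knockout (KO) cells carried Ptger2-/-, Ptger4 fl/fl and GzmbCre, so that the prostaglandin E2 (PGE2) receptor EP2 was deleted in the germ line and EP4 in cells in which the granzyme B promoter had driven Cre. The WT cells are not labelled as carrying Cre, so Cre and loss of the receptors cannot be told apart. WT and KO cells alike received either no treatment or PGE2 (100 ng/ml). They were kept resting, or the NK1.1 activating receptor was engaged for 4 h following 1 h of pretreatment. There were 4 libraries in each group except resting WT with PGE2 and untreated resting KO, which had 3. The labels do not say that the libraries of a group came from separate animals, and the spread behind every p-value may therefore be technical.

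Reads in peaks ranged from 8444350 to 20153816 per library, and the Slc peaks took 1.26 to 1.34% of them. A normalised count of 1 stood for about 1 read, since 1 read was worth 0.663 to 1.66 normalised counts. All 8 NK marker genes checked had peaks, with a summed level of 18400 to 23738, against 2 of 6 B-cell genes (554 to 914) and 2 of 6 T-cell genes (1564 to 2081). Among myeloid genes 5 of 6 had peaks (2880 to 3701), and among erythroid genes 2 of 5 (458 to 663). The Ptger2 promoter held 560 to 1109 normalised counts in the WT libraries and 83.6 to 247 in the KO libraries. A Ptger4 exon held 434 to 685 and 56.2 to 152, so the genotypes did not overlap at these peaks. The Ptger4 promoter held 822 to 1455 in WT and 901 to 1605 in KO, and there they overlapped.

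Solute carriers move nutrients, ions, metals, vitamins and metabolic intermediates across the plasma membrane and across the membranes of mitochondria, lysosomes, the Golgi and vesicles. Activated lymphocytes are known to take up more amino acids, glucose and zinc through carriers of this class. PGE2 is a lipid mediator that acts on lymphocytes mainly through EP2 and EP4, which raise cyclic AMP, and it is known for dampening NK cell function. Accessibility shows open DNA, and neither transcript nor carrier was measured here.

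The 587 peaks comprised 197 at promoters, 184 in introns, 146 between genes and 60 in exons, as the table classes them. Promoters made up 33.6% of the Slc peaks and 31.3% of all peaks. A promoter peak was present for 189 genes, and 127 genes had a single peak. Slc9a9 had the most, with 16, followed by Slc12a7 with 13 and Slc44a5 with 11. Peak width ran from 329 to 3423 bases with a median of 1043. No peak was assigned to Slc7a11, Slc40a1 or Slc30a1, the cystine exchanger, the iron exporter and a zinc exporter. The name rule also took in Slc9a3r1 and Slc9a3r2, which encode scaffold proteins, and Slc36a1os, an opposite-strand transcript. Assignment to a gene carries doubt away from promoters. Of 469 Slc peaks whose gene has a RefSeq start, another gene's start lay closer for 127, among them 10 of 155 promoter peaks, 22 of 43 exon peaks, 50 of 152 intron peaks and 45 of 119 intergenic peaks.

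RefSeq promoter windows, from 250 bases before to 50 after a gene's start, lay inside 126 of the 197 Slc promoter peaks. The 6 below belong to promoters described in the results. They are printed 5′ to 3′ on the gene's strand in the GRCm38.p6 build, which is mm10. Capitals mark TGACGTCA (the cyclic AMP response element, CRE), TGANTCA (AP-1) and GGAAA (the core of NFAT and ETS sites), each searched on both strands.
Slc7a1: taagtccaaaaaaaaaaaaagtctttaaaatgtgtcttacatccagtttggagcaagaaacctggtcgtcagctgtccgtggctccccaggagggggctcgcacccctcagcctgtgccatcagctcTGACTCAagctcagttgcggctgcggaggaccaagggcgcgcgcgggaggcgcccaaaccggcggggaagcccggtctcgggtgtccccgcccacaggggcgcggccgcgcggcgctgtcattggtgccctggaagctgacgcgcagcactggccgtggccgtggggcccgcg
Slc35b2: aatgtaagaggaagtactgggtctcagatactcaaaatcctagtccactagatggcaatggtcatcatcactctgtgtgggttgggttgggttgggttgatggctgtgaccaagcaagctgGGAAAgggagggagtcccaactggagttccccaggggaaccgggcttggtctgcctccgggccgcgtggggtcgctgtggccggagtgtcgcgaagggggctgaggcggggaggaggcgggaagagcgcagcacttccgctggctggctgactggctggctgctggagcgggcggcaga
Slc2a6: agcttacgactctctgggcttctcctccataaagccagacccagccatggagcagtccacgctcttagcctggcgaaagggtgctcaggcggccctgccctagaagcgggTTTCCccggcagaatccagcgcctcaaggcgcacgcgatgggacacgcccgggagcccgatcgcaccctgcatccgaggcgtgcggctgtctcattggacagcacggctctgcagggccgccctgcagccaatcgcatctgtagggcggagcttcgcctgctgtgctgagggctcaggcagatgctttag
Slc37a2: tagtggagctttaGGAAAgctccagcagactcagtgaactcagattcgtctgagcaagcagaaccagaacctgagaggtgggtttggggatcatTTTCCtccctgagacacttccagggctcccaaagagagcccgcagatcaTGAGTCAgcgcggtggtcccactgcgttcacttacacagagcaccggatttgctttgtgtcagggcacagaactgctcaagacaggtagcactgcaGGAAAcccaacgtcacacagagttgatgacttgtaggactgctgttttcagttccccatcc
Slc18a2: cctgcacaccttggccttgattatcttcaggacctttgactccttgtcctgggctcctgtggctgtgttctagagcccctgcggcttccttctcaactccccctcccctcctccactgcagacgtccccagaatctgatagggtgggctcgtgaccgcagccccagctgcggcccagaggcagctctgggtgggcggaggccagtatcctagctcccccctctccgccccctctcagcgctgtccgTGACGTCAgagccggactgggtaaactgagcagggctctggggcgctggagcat
Slc25a45: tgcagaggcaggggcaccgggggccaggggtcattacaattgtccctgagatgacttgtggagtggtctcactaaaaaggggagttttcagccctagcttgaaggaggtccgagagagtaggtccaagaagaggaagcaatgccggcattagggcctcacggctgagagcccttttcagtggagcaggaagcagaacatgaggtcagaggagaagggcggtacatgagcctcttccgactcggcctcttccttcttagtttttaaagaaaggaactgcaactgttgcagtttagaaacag
The window of the arginine and lysine carrier Slc7a1 (chr5:148399855-148400154, minus strand) held 1 AP-1 match. That of the sulphate donor carrier Slc35b2 (chr17:45563686-45563985, plus strand) held 1 GGAAA match, as did that of the lysosomal glucose carrier Slc2a6 (chr2:27027949-27028248, minus strand), where it reads TTTCC on the printed strand. The Slc37a2 window (chr9:37255689-37255988, minus strand) held 1 AP-1 match and 3 of GGAAA. The Slc18a2 window (chr19:59260628-59260927, plus strand) held a full CRE, and the Slc25a45 window (chr19:5877572-5877871, plus strand) held none of the 3. Over the 126 Slc windows the full CRE was present in 1.59%, against 1.79% of all 32851 RefSeq mouse windows in the table. AP-1 was in 7.14% against 7.81% and GGAAA in 49.2% against 61.3%. The CRE core TGACG was in 27.8% against 20.8%, and the E-box CACGTG in 15.9% against 7.15%. The Slc windows were kept only where they lay inside an accessible peak, while the 32851 windows were taken whether open or not. The sets therefore also differ in openness, and its part in these shares was not tested. A match describes letters in a window and not a bound site.

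At rest, PGE2 opened more Slc peaks than it closed in WT cells. By limma with Benjamini-Hochberg adjustment over all 38525 peaks tested (adjusted p under 0.05), 62 Slc peaks were higher and 17 lower of 587, which is 13.5%. Over all peaks 14.9% were called, 10.9% higher and 4.03% lower, so the Slc peaks stood near the background. The median log2 difference was -0.01 for the Slc peaks and -0.01 for all peaks. Away from promoters 56 of 390 Slc peaks rose and 10 fell, while at promoters 6 of 197 rose and 7 fell. Over all 12048 promoter peaks tested 265 rose and 300 fell. Of all 26477 other peaks 3921 rose (14.8%) and 1254 fell (4.74%), against 14.4% and 2.56% of the Slc peaks there.

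**Figure D1:**
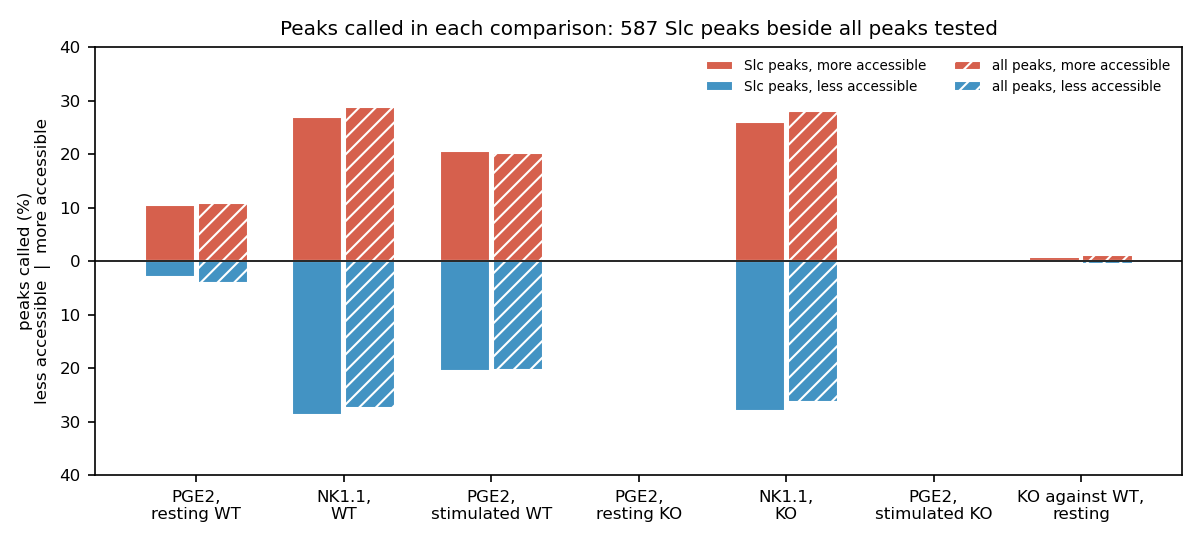
Percent of peaks called more accessible (bars up from 0) or less accessible (bars down) in each comparison, for the 587 Slc peaks (plain) and all peaks tested (hatched). In resting WT cells with PGE2 13.5% of the Slc peaks were called against 14.9% of all peaks, and in each of the comparisons of PGE2 in KO cells 0 Slc peaks were called.

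Among sugar, sugar phosphate and monocarboxylate carriers 14 of 82 peaks rose with PGE2 at rest and 2 fell. The clearest was an intron of Slc37a2 (chr9:37235788-37236532), an endoplasmic reticulum exchanger of glucose 6-phosphate and phosphate. It held 160.2, 156, 122 and 139 normalised counts in the untreated resting WT libraries and 439, 439 and 437 with PGE2. Every PGE2 library lay above every untreated one, and the log2 difference was 1.61 (SE 0.11, adjusted p = 2.87e-13). The KO libraries held 144, 166 and 172 untreated and 196, 181, 168 and 179 with PGE2. The PGE2 effect was greater in WT than in KO by 1.43 on the log2 scale (SE 0.16, adjusted p = 1.43e-07). In all, 4 of the 6 Slc37a2 peaks rose, including its promoter, which went from 641 ± 47.3 (SD, n = 4) to 799.9 ± 36 (n = 3).

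The same sugar phosphate exchanger family gave a further strong rise at an exon of Slc37a3 (chr6:39333922-39335080). Its levels were 365, 374, 496 and 420.4 untreated, and 898, 1109.5 and 1018 with PGE2. The groups lay far apart, with a log2 difference of 1.29 (SE 0.11, adjusted p = 2.71e-11). KO cells held 387, 461 and 504 untreated and 422, 383, 492 and 479.7 with PGE2, and the effect differed between genotypes by 1.31 (adjusted p = 3.54e-07). Of the 6 Slc37a3 peaks 3 rose at rest.

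Among organic ion and vesicular carriers 4 of 48 peaks rose and 2 fell. The rise with the largest log2 difference among the named Slc peaks lay 24194 bp upstream of Slc22a15, an organic cation and zwitterion carrier (chr3:101948230-101949064). Untreated resting WT libraries held 55.0, 57.3, 43.2 and 68.1, and PGE2 libraries 192, 298 and 258. All 3 PGE2 values exceeded all 4 untreated values, with a log2 difference of 2.13 (SE 0.25, adjusted p = 5.49e-08). With NK1.1 stimulation the same peak held 100.2, 86.7, 113 and 135 without PGE2 and 243, 187, 246 and 233 with it, again without overlap. In KO cells at rest it held 28.7, 82.2 and 85.1 untreated and 102, 54.4, 99.1 and 102 with PGE2. The genotypes differed in their resting PGE2 effect by 1.58 (adjusted p = 0.00402).

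Amino acid and peptide carriers had 11 of 83 peaks higher and 4 lower at rest. An intron of Slc6a6, the taurine carrier (chr6:91712047-91713468), held 107, 127, 106 and 106 untreated and 253, 226 and 266 with PGE2. These groups did not overlap, and the log2 difference was 1.15 (SE 0.19, adjusted p = 1.47e-05). The promoter of the lysosomal peptide carrier Slc15a3 rose from 134 ± 22.6 to 228 ± 17.3, by 0.77 (adjusted p = 0.000665). An intron of Slc7a1 starting at 148376705 rose from 202 ± 21.9 to 350 ± 43.9, by 0.79 (adjusted p = 1.56e-06). In the opposite direction, a peak assigned to Slc36a1, the lysosomal amino acid exporter, fell (chr11:55238757-55239659). It held 144, 170.1, 179.7 and 176 untreated and 106, 89.6 and 88.6 with PGE2, without overlap, a log2 difference of -0.81 (SE 0.16, adjusted p = 0.000305). In KO cells with PGE2 it held 173, 186, 151 and 163, and the genotype difference was -0.97 (adjusted p = 0.00526).

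Metal carriers had 8 of 53 peaks higher and 1 lower. An exon of Slc11a1, the phagosomal divalent metal carrier of myeloid cells (chr1:74381169-74382274), held 95.8, 98.2, 141 and 139 untreated and 193, 269.6 and 252 with PGE2. The groups did not overlap and differed by 1.01 (SE 0.19, adjusted p = 0.000113). The summed myeloid markers of these groups overlapped, at 3330 to 3551 with PGE2 against 3138 to 3487 untreated. The NK sum was 18676 to 21315 against 21066 to 23333, and the T-cell sum 1674 to 1817 against 1793.8 to 2081. B-cell and erythroid sums overlapped as well, and the part of these markers was not tested. An intergenic peak assigned to Slc39a14, a zinc and iron importer, went from 28.5 ± 4.76 to 71.0 ± 10.6, by 1.29 (adjusted p = 1.68e-05). Both introns of the endosomal iron carrier Slc11a2 with peaks rose, by 0.68 and 0.57, while its promoter did not pass the test (0.09). Each of these intron calls was lost when single libraries were left out, PGE2 replicate 3 or 4 among them, and the larger also with libraries scaled to equal totals.

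Of the other classes, ion exchangers had 11 of 117 peaks higher and 2 lower, mitochondrial carriers 4 of 72 and 1, and nucleoside and nucleotide-sugar carriers 5 of 53 and 0. Lipid and choline carriers had 3 of 40 higher and 1 lower, vitamin and haem carriers 1 of 23 and 2, and phosphate and sulphate carriers 1 of 10 and 0. The choline transporter-like gene Slc44a5 gained at its promoter, from 24.9 ± 5.50 to 62.6 ± 16.4 (1.28, adjusted p = 0.000101). Among the falls at promoters were Slc46a1, the proton-coupled folate carrier, from 97.2 ± 14.2 to 61.6 ± 16.8 (-0.67, adjusted p = 0.00541, and -0.45 and not called without PGE2 replicate 2), and Slc9a3r2, from 344 ± 29 to 223 ± 30.1 (-0.63, adjusted p = 4.77e-05). The 79 called Slc peaks belonged to 57 of the 261 genes (21.8%, against 23.5% of all genes). Of these 57 genes Slc9a9 alone (1.75%) had peaks called in both directions, against 9.71% over all genes with a called peak.

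With NK1.1 stimulation of untreated WT cells, Slc peaks rose and fell in near equal numbers. Of the 587 Slc peaks 158 rose and 169 fell, which is 55.7%, against a background of 56.3% (28.9% higher and 27.4% lower). The called peaks belonged to 182 of the 261 genes (69.7%, against 64.2% of all genes). Of these 182 genes 33 (18.1%) had peaks called in both directions, against 24.1% over all genes with a called peak. At promoters 36 of 197 rose and 39 fell, beside 2352 and 2617 of all 12048. Elsewhere 122 of 390 rose and 130 fell, beside 8768 and 7955 of all 26477. The summed myeloid markers were lower with stimulation, at 2880 to 3131 against 3138 to 3487. So were the B-cell sum, at 554 to 659 against 755 to 791 (Ebf1 and Pax5 alone had peaks), and the erythroid sum, at 481 to 547 against 572 to 663. The T-cell sum overlapped, at 1829.8 to 2059 against 1793.8 to 2081. The part of these markers in the Slc results was not tested.

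The rise with the largest log2 difference among the peaks given by library was in an intron of Slc29a3, the lysosomal nucleoside carrier, 5961 bp from its start (chr10:60746387-60747255). Resting libraries held 14.1, 23.3, 19.6 and 29.9, and stimulated libraries 537, 482, 552 and 511. The peak was near the floor of the table at rest and open in every stimulated library, with a log2 difference of 4.57 (SE 0.20, adjusted p = 1.29e-20). An intron assigned to Slc25a30, a member of the mitochondrial carrier family, showed a like pattern (chr14:75763452-75764470). It held 12.6, 11.7, 32.4 and 23.9 at rest and 238, 225, 254 and 240.3 with stimulation, a log2 difference of 3.63 (SE 0.22, adjusted p = 1.41e-16). That peak lay closer to the start of Cog3 (9468 bp) than to that of Slc25a30 (23076 bp).

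Amino acid and peptide carriers had 29 of 83 peaks higher and 21 lower. All 6 peaks of Slc7a1 rose, by 1.08 to 3.0 on the log2 scale. Its promoter (chr5:148398240-148400595), whose window with the AP-1 match is printed above, held 1482, 1448, 1508 and 1426 at rest and 3754, 3430.3, 3392 and 3529 with stimulation. Each stimulated library was above every resting one, with a log2 difference of 1.26 (SE 0.07, adjusted p = 5.05e-17). An intron of Slc7a1 starting at 148386850 went from 25.5 ± 9.21 to 203 ± 24.2. Other carriers of this class lost accessibility. Slc43a2, a facilitative carrier of large neutral amino acids, fell at its promoter (chr11:75530346-75533768) from 2224, 2364, 2214 and 2194 to 1415, 1422, 1469 and 1544, without overlap (-0.62, SE 0.09, adjusted p = 2.88e-07).

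Slc38a2, the sodium-coupled neutral amino acid carrier induced by amino acid shortage, had 5 of its 9 peaks lower and 1 higher. A peak 20488 bp upstream (chr15:96719622-96720810) held 587, 578, 535 and 554 at rest and 329, 271, 281 and 274 with stimulation. The groups were well apart (-0.97, SE 0.10, adjusted p = 7.36e-11), while the Slc38a2 promoter did not pass the test (-0.16). The Slc36a1 peak that fell with PGE2 at rest also fell here, to 87.0, 58.3, 67.4 and 58.1 (-1.31, adjusted p = 1.68e-09). These comparisons share the untreated resting libraries.

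Sugar and monocarboxylate carriers had 25 of 82 peaks higher and 21 lower. The promoter of Slc2a6 (chr2:27027234-27029107) rose from 1021, 1108, 1136 and 1127 to 2013, 1866, 1754 and 1726. All stimulated values exceeded all resting values (0.74, SE 0.08, adjusted p = 5.15e-10). The Slc37a2 intron described above reached 421, 377, 432 and 499 with stimulation alone (1.58, adjusted p = 1.59e-15), and the Slc37a3 exon 965, 905, 1016 and 1106 (1.28, adjusted p = 1.85e-13). A further Slc37a2 intron starting at 37242169 went from 16.8 ± 8.95 to 224 ± 22.9 (3.89, adjusted p = 8.63e-14).

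Nucleoside and nucleotide-sugar carriers had 10 of 53 peaks higher and 14 lower. The promoter of Slc35b2, the Golgi carrier of the sulphate donor PAPS (chr17:45563471-45565133), held 537, 516, 522 and 639 at rest. It held 1378, 1208, 1198 and 1117 with stimulation, every value above the resting ones (1.15, SE 0.09, adjusted p = 1.11e-13). An intron of Slc28a1, a concentrative nucleoside carrier, rose from 145 ± 18.5 to 473 ± 10.4 (1.70, adjusted p = 2.68e-15).

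Metal carriers had 16 of 53 peaks higher and 11 lower. The Slc11a1 exon rose to 902, 790.1, 912 and 903, far above its resting values (2.90, SE 0.17, adjusted p = 6.53e-17). The promoter of Slc39a2, a zinc importer (chr14:51892073-51892963), moved the other way, from 95, 79.7, 70.7 and 77.6 to 43.5, 31.2, 30.9 and 39.9. No stimulated value reached a resting one (-1.14, SE 0.20, adjusted p = 5.35e-06). Zinc exporters of the Golgi and vesicles with higher peaks included Slc30a7 (intron), from 13.6 ± 5.72 to 113 ± 13.8 (3.05, adjusted p = 9.02e-12), and Slc30a3 (promoter), from 140 ± 36.2 to 291 ± 14.8 (1.09, adjusted p = 1.38e-08).

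Ion exchangers had 33 of 117 peaks higher and 39 lower. An intron assigned to Slc26a3, a chloride and bicarbonate exchanger (chr12:31391817-31392915), fell from 237, 212, 254 and 271 to 66.8, 65.1, 57.1 and 76.3. The groups were separated by a wide gap (-1.86, SE 0.18, adjusted p = 5.32e-11). The start of Dld was nearer to it (40895 bp) than that of Slc26a3 (45853 bp). Of the 13 peaks of Slc12a7, a potassium and chloride cotransporter, 2 rose and 6 fell, and an intron starting at 73736725 went from 752 ± 42.0 to 266 ± 38.1 (-1.51, adjusted p = 1.7e-12). Slc9a9, the endosomal sodium and proton exchanger, had 3 of 16 peaks higher and 7 lower. A Slc9a9 peak starting at 94606495 rose by 1.78, and one 49072 bp upstream of its start (chr9:94620215-94621426) went from 162, 115, 121 and 99.1 to 57.7, 88.1, 65.0 and 77.2 (-0.77, adjusted p = 0.000297).

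In the remaining classes mitochondrial carriers had 16 of 72 peaks higher and 20 lower, organic ion and vesicular carriers 15 of 48 and 10, and lipid and choline carriers 7 of 40 and 17. Vitamin and haem carriers had 4 of 23 higher and 8 lower, and phosphate and sulphate carriers 3 of 10 and 3. An intron of the reduced folate carrier Slc19a1 rose from 10.9 ± 3.57 to 52.4 ± 8.79 (2.21, adjusted p = 1.06e-07), while its promoter stayed at 549 and did not pass the test (0.01). Upstream of the phosphate importer Slc20a1 a peak rose from 38.8 ± 7.51 to 134 ± 11.6 (1.78, adjusted p = 1.06e-09), and again the promoter did not pass (-0.07). Slc44a5 had 7 of 11 peaks lower and 1 higher.

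**Figure D2:**
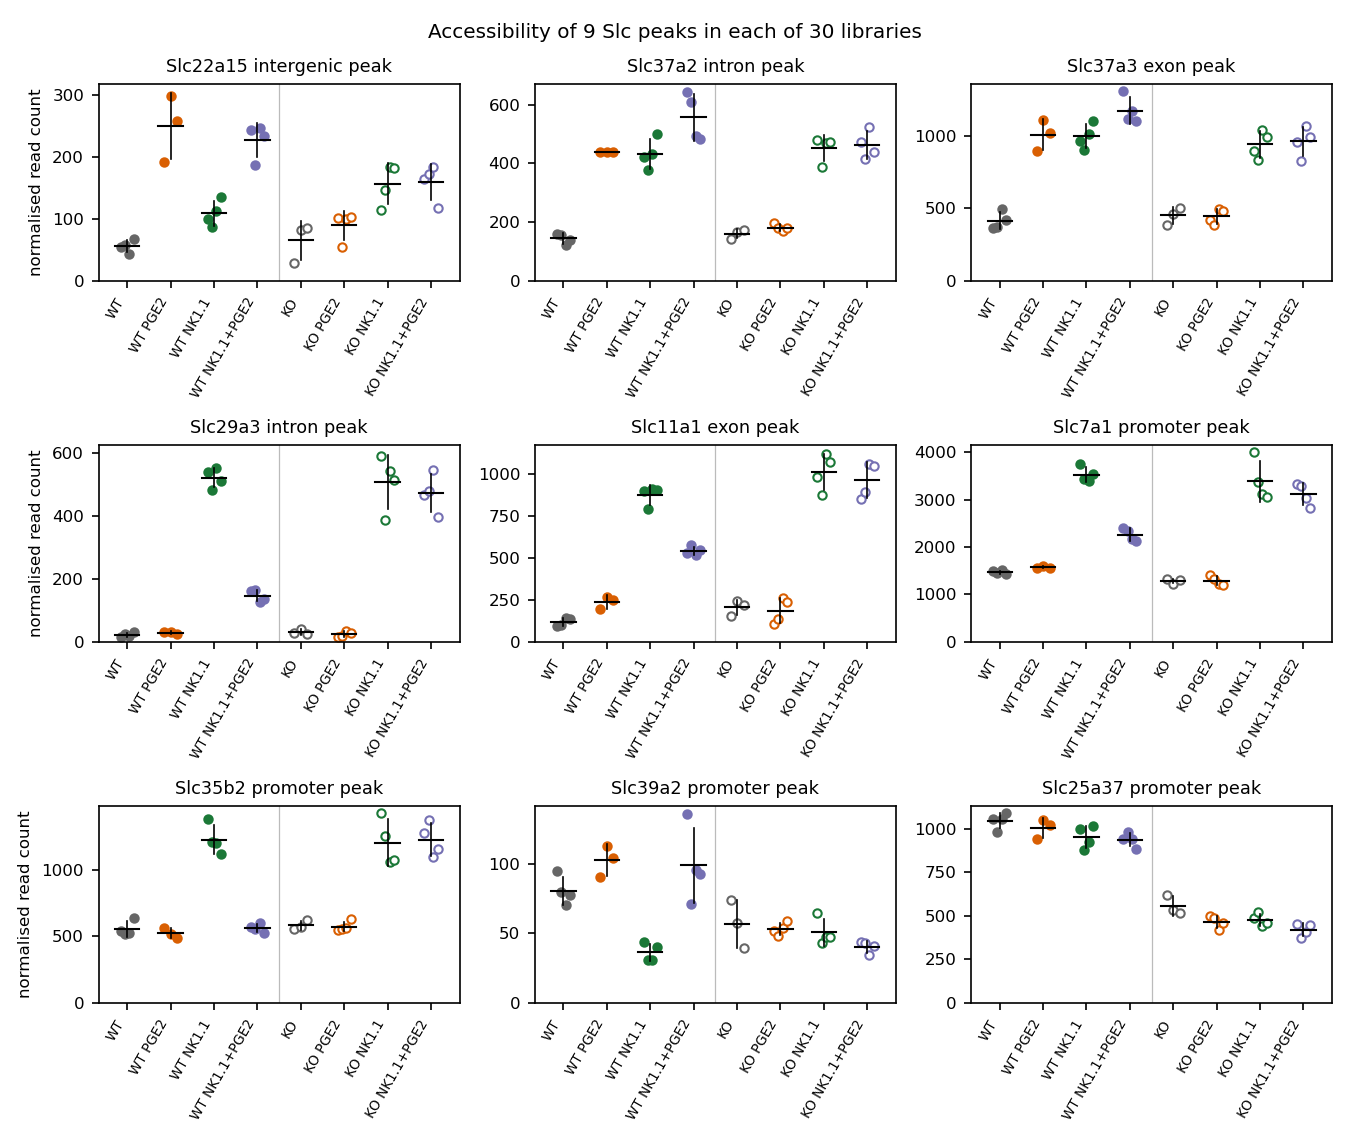
Normalised read counts (linear axes from 0) of 9 Slc peaks in each of the 30 libraries, by group; each point is a library, filled for WT and open for KO, with the group mean (horizontal line) and SD (vertical line). The Slc29a3 intron lies at 14.1 to 29.9 in the untreated resting WT libraries and at 482 to 552 with NK1.1, and the Slc25a37 promoter separates WT from KO in every treatment.

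When WT cells were stimulated in the presence of PGE2, 121 Slc peaks were higher and 121 lower than in stimulated cells without it. Together they made 41.2% of the 587, against 40.5% of all peaks (20.2% higher and 20.4% lower). They belonged to 144 of the 261 genes (55.2%, against 51.2% of all genes). At promoters the direction was mostly down, with 11 of 197 higher and 41 lower. Away from promoters 110 of 390 rose and 80 fell. The same lean was seen over all peaks tested, with 855 of 12048 promoters higher and 2401 lower, and 6912 of 26477 other peaks higher and 5451 lower. The summed myeloid marker level was 2880 to 3131 in stimulated WT libraries without PGE2 and 3465 to 3701 with it. The B-cell sum was 554 to 659 without PGE2 and 694 to 788 with it, and the T-cell sum (Cd3d and Cd3e) was lower with PGE2, at 1607 to 1752.5 against 1829.8 to 2059. The part of these markers in the results was not tested.

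Several promoters that stood high in stimulated cells were lower with PGE2. The untreated stimulated libraries enter both comparisons, so each comparison's values are given side by side and neither bears on the other. The Slc35b2 promoter held 569.6, 556, 595 and 521 with PGE2, all below the 1117 to 1378 without it (-1.12, SE 0.09, adjusted p = 1.39e-12). The Slc2a6 promoter held 1157, 1111, 1216 and 1112, below 1726 to 2013 (-0.68, SE 0.08, adjusted p = 1.46e-08). The Slc7a1 promoter held 2401, 2346, 2173 and 2128, below 3392 to 3754 but above the resting 1426 to 1508 (-0.64, SE 0.07, adjusted p = 9.13e-09). Of the 6 Slc7a1 peaks 5 were lower with PGE2.

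The same promoters were not called for PGE2 in stimulated KO cells. Slc35b2 had 1427, 1255, 1059.9 and 1069 with stimulation alone and 1274, 1374, 1095 and 1154 with PGE2 added. Slc2a6 had 1979, 1743, 1871 and 1871 against 1837, 2025, 1697 and 1829, and Slc7a1 3998, 3374, 3122 and 3049.9 against 3335, 3286, 3023 and 2829. The groups overlapped at all 3 promoters. The PGE2 effect during stimulation differed between genotypes (WT minus KO) by -1.16 at Slc35b2 (SE 0.13, adjusted p = 2.66e-08), by -0.66 at Slc2a6 (adjusted p = 5.21e-05) and by -0.53 at Slc7a1 (adjusted p = 0.000353).

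The intronic peaks gave the larger log2 differences. At Slc29a3 the PGE2 libraries held 161, 163, 127 and 135, against 482 to 552 without PGE2 (-1.83, SE 0.20, adjusted p = 2.65e-09). KO cells held 589, 388, 541 and 514 with stimulation and 467, 478, 547 and 397 with PGE2 added, and the genotypes differed by -1.73 (SE 0.28, adjusted p = 2.54e-05). At the Slc25a30 intron PGE2 libraries held 48.7, 39, 56.0 and 50.5, against 225 to 254 (-2.29, SE 0.22, adjusted p = 1.74e-10). In both introns the PGE2 values lay below every stimulated value without PGE2 and above every untreated resting value. For Slc25a30 the KO libraries held 264, 268, 285 and 248, and 219, 231, 224 and 231 with PGE2. Every KO value with PGE2 lay below every KO value without it, though the peak was not called there. The genotype difference was -2.06 (SE 0.32, adjusted p = 8.95e-06).

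Further Slc peaks lower with PGE2 under stimulation included an exon of Slc36a3, a proton-coupled amino acid carrier, at 692 ± 61.5 without and 200.5 ± 29.2 with PGE2 (-1.79, adjusted p = 1.2e-14). The start of the opposite-strand transcript Slc36a3os lay closer to that peak. The Slc28a1 intron fell from 473 ± 10.4 to 181 ± 22.6 (-1.39, adjusted p = 4.16e-12). Among promoters, that of Slc26a10, an anion exchanger family member, fell from 356 ± 25.2 to 133 ± 15.9 (adjusted p = 1.15e-11), that of Slc30a3 from 291 ± 14.8 to 125 ± 16.4 (-1.22, adjusted p = 4.69e-09) and that of Slc9a8, a Golgi and endosomal sodium and proton exchanger, from 1513 ± 129 to 905 ± 32.5 (-0.74, adjusted p = 2.74e-11). The promoter of Slc18a2, the vesicular monoamine carrier whose window holds the full CRE, went from 147 ± 16.4 to 104 ± 13.2 (-0.51, adjusted p = 0.00619). Of the 126 windows 28 lay in promoter peaks that were lower, and 1 of these held a CRE, 3 an AP-1 match and 16 a GGAAA.

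**Figure D3:**
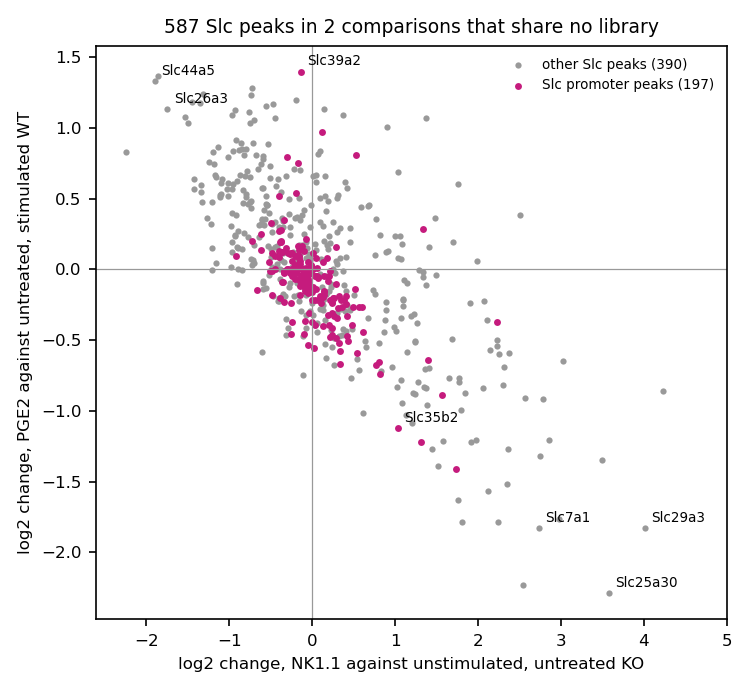
Log2 difference with NK1.1 stimulation of KO cells (horizontal) against log2 difference with PGE2 in stimulated WT cells (vertical) for the 587 Slc peaks, which share no library. Promoter peaks are coloured. Of 152 called higher with stimulation in KO cells, 93 (61.2%) were called lower with PGE2 in WT cells, against 56.8% over all peaks.

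Among the peaks that PGE2 raised during stimulation was the promoter of the mitochondrial carrier Slc25a45 (chr19:5877524-5878555). It held 833, 935, 881 and 1018 in untreated resting WT cells, 1309, 1200.0 and 1312 with PGE2, 739, 667, 745 and 829 with stimulation, and 1285, 1237, 1288 and 1192 with both. The PGE2 libraries were the high ones in either state and did not overlap those without PGE2. The log2 difference was 0.48 at rest (SE 0.08, adjusted p = 3.02e-05) and 0.75 under stimulation (SE 0.07, adjusted p = 3.01e-10). Under stimulation it differed between genotypes by 0.76 (adjusted p = 1.82e-06), and at rest the difference of 0.34 did not pass (adjusted p = 0.0751).

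The Slc39a2 promoter held 136, 71.4, 95.8 and 92.5 with PGE2 and stimulation, all above the 30.9 to 43.5 with stimulation alone (1.40, SE 0.20, adjusted p = 3.51e-07). KO libraries held 64.8, 43.3, 47.7 and 47.2 and, with PGE2, 44.1, 42.8, 34.2 and 40.8, a genotype difference of 1.71 (adjusted p = 2.15e-05). Slc39a2 lies on the same chromosome as the deleted Ptger2, and the part of nearby DNA from the targeted allele was not tested. The upstream peak of Slc38a2 held 399.6, 447, 485 and 381 with PGE2 (0.57, adjusted p = 1.11e-05), and the Slc43a2 promoter 1875, 1816, 1770.1 and 1857 (0.32, adjusted p = 0.00414). Both lay above the stimulated libraries without PGE2 and below the resting ones. The Slc26a3 intron held 161, 129, 142 and 153, again between the other groups (1.13, adjusted p = 4.89e-06). The Slc9a9 upstream peak held 189, 164, 180.4 and 164, above all 4 stimulated values without PGE2 (1.28, SE 0.18, adjusted p = 2.55e-07).

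By class, amino acid and peptide carriers had 14 of 83 peaks higher and 23 lower with PGE2 under stimulation, and sugar and monocarboxylate carriers 20 of 82 and 16. Lipid and choline carriers had 14 of 40 higher and 7 lower, with 8 of the 11 Slc44a5 peaks higher and 0 lower. Ion exchangers had 25 of 117 and 29, mitochondrial carriers 11 of 72 and 14, metal carriers 10 of 53 and 12, and organic ion carriers 11 of 48 and 8. Nucleoside carriers had 9 of 53 higher and 7 lower, vitamin and haem carriers 1 of 23 and 3, and phosphate and sulphate carriers 4 of 10 and 2. The 8 nutrient carriers left out by the rule had 1 of 33 peaks higher (3.03%) and 9 lower (27.3%). The other membrane transporter genes (ATPases, ABC transporters, aquaporins and like families) had 85 of 288 higher (29.5%) and 52 lower (18.1%). Over all peaks tested 20.2% were higher and 20.4% lower. No test compared the classes or these lists.

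**Figure D4:**
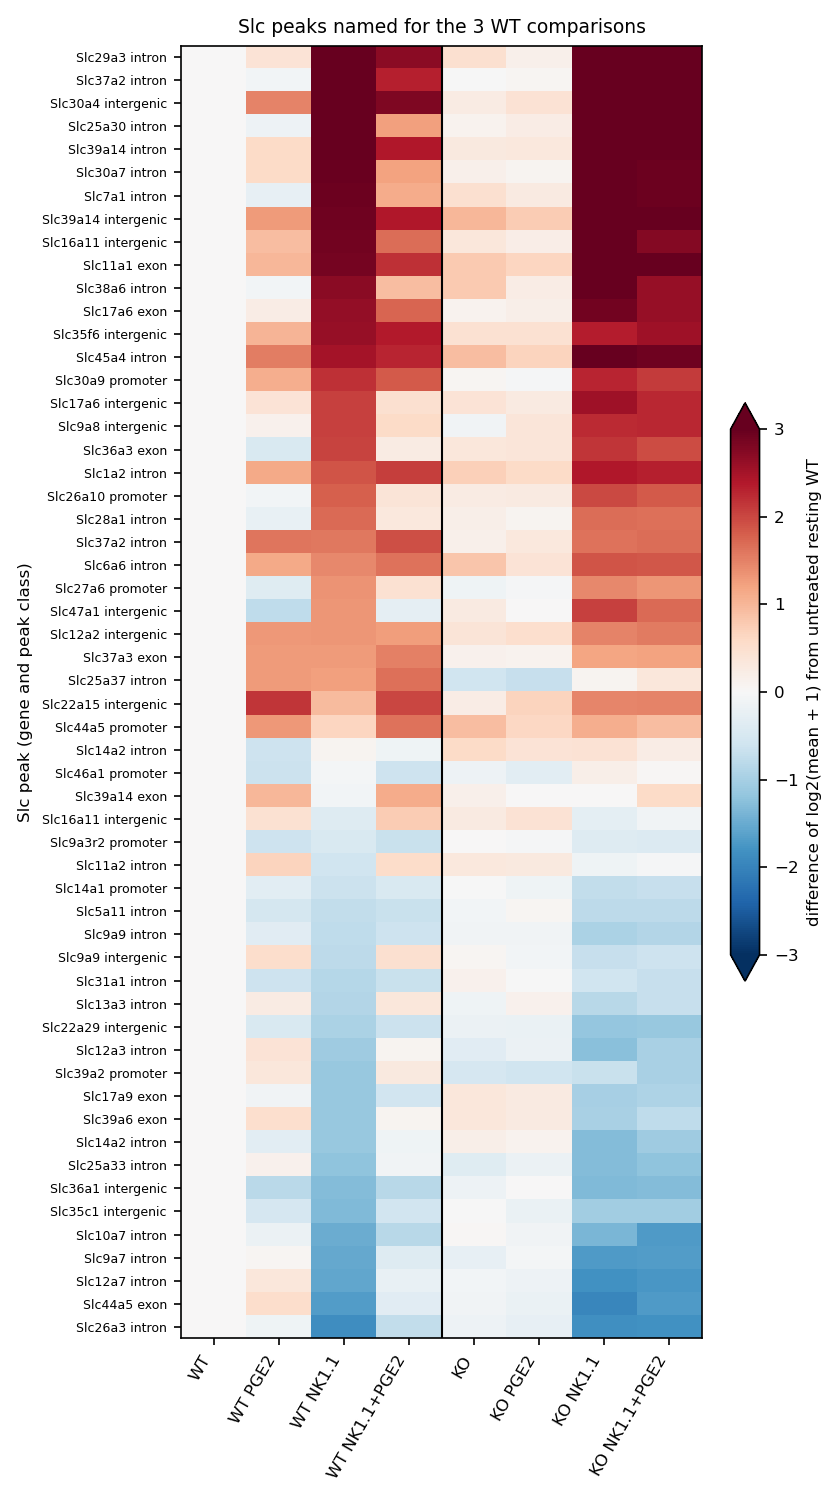
Difference of log2(group mean + 1) from untreated resting WT (colour, centred at 0) for 56 Slc peaks with the largest differences in the WT comparisons, in the 8 groups, ordered by the difference with NK1.1 in WT cells. Rows that are dark red with NK1.1 in WT and paler with NK1.1 and PGE2, such as the Slc25a30 intron, stay dark in both stimulated KO columns.

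Some Slc genes had peaks that moved apart. With PGE2 in stimulated WT cells 22 of the 144 Slc genes with a called peak (15.3%) had peaks called in both directions, against 19.1% over all genes with a called peak. At Slc12a3, a sodium and chloride cotransporter, an intron (chr8:94353917-94355161) rose with PGE2 from 380 ± 30.3 to 834 ± 108 (1.13, adjusted p = 6.96e-08). An exon of Slc12a3 further on (chr8:94364662-94366217) fell from 1643 ± 198 to 893 ± 35.3 (-0.87, adjusted p = 2.37e-11). The start of Gm15889 was nearer to the intron (23336 bp) than that of Slc12a3 (25331 bp). It was also nearer to the exon (12436 bp against 36231 bp), so the assignment of both peaks to Slc12a3 carries doubt. At Slc9a9 7 of 16 peaks rose and 2 fell, and at Slc12a7 7 of 13 rose and 1 fell. Slc37a2 had 4 of 6 higher and 1 lower: the intron starting at 37235788 rose to 642, 609, 494 and 482 (0.36, adjusted p = 0.00567), and the intron starting at 37242169 fell to 88.9 ± 19.9 (-1.35, adjusted p = 0.000406).

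**Figure D5:**
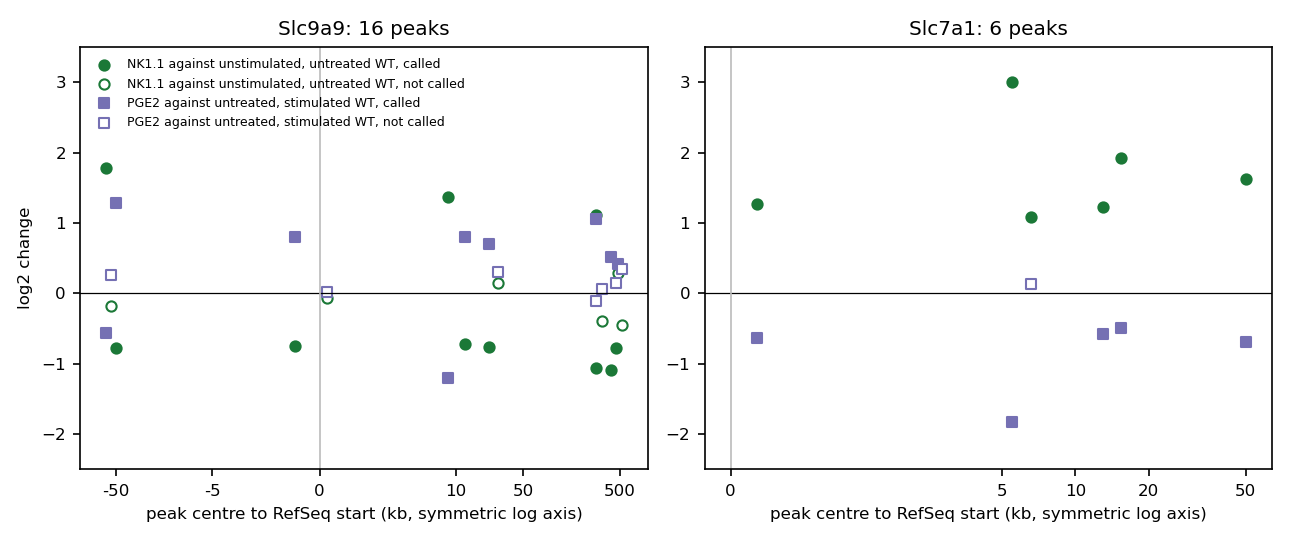
Log2 difference of each Slc9a9 and Slc7a1 peak against its distance from the RefSeq start (kb, symmetric log axis), with NK1.1 stimulation (circles) and with PGE2 under stimulation (squares) of WT cells, filled where called. All 6 Slc7a1 peaks lie above 0 with stimulation, while the 16 Slc9a9 peaks lie on both sides, 3 called higher and 7 lower.

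The effect of PGE2 itself depended on stimulation at 151 of the 587 Slc peaks (25.7%, background 25.3%, of which 10.6% positive and 14.7% negative). The difference between the effects, with stimulation minus without, was positive at 69 and negative at 82. Of the 62 Slc peaks that rose with PGE2 at rest, 28 (45.2%) also rose with PGE2 under stimulation and 6 (9.68%) fell, against 50.9% and 11.9% over all peaks. Of the 17 that fell 5 (29.4%) also fell and 3 (17.6%) rose, against 35.4% and 12.7%. The rest did not pass the test under stimulation. No library is shared between these comparisons.

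In KO cells no Slc peak was called for PGE2 by limma, which does not show that PGE2 had no effect there. The fit used no replicate block, although same-numbered libraries deviated together in these KO comparisons. At rest 0 of 587 were called (background 0%), with 22 at an unadjusted p under 0.05, and under stimulation 0 (background 0.0026%), with 30. The difference of the PGE2 effect between genotypes passed its own test at 29 Slc peaks at rest (25 positive and 4 negative, 4.94%, background 6.18%, of which 4.94% positive and 1.24% negative). Under stimulation it passed at 111 (58 positive and 53 negative, 18.9%, background 20%, of which 10.2% positive and 9.8% negative). Of the peaks that PGE2 raised in resting WT cells 33 of 62 (53.2%) had a difference of the same sign in KO cells, and of those it lowered 9 of 17 (52.9%). Over all peaks these shares were 63.8% and 45%. Under stimulation they were 87 of 121 (71.9%) and 93 of 121 (76.9%), against 71.5% and 77.3% over all peaks.

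NK1.1 stimulation acted on the Slc peaks of both genotypes. In untreated KO cells 152 rose and 165 fell (54%, background 54.5%, of which 28.1% higher and 26.4% lower). Of the 158 that rose in WT cells 135 rose in KO cells, which is 85.4% of the WT list and 88.8% of the KO list (88% and 90.5% over all peaks). Of the 169 that fell, 140 fell in KO cells, 82.8% of the WT list and 84.8% of the KO list (79.9% and 83% over all peaks). In KO cells the NK marker sum was 18665 to 19738 at rest and 20993 to 23583 with stimulation. The B-cell, myeloid and erythroid sums were lower with stimulation, without overlap. The T-cell sum overlapped, at 1678 to 1904.9 at rest and 1570.8 to 1969.8 with stimulation. The part of these markers was not tested. The Slc11a1 exon, for example, held 985, 877, 1119.9 and 1073 in stimulated KO libraries, and the Slc29a3 intron rose there by 4.01. The difference of the stimulation effect between genotypes passed at 0 Slc peaks by limma (background 0.00779%, of which 0.00519% positive), with 20 at an unadjusted p under 0.05. Set beside PGE2 in stimulated WT cells, with which it shares no library, stimulation of KO cells raised 152 Slc peaks of which PGE2 lowered 93 (61.2%, or 76.9% of the 121 lowered) and raised 5 (3.29%). Over all peaks these shares were 56.8%, 78.3% and 6.86%. Of the 165 it lowered, PGE2 raised 82 (49.7%, or 67.8% of the 121 raised) and lowered 0, against 46.5%, 61% and 0.53% over all peaks.

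Between the genotypes without any treatment 6 Slc peaks differed, 4 higher and 2 lower in KO (1.02%, background 1.73%, of which 1.09% higher and 0.636% lower). The count was 2 without KO replicate 3, 3 without KO replicate 4 or WT replicate 1, and 10 without KO replicate 2. The NK marker sum was lower in these KO libraries (18665 to 19738 against 21066 to 23333 in WT) and the B-cell sum higher (805 to 890.1 against 755 to 791), and their part was not tested. The promoter of Slc25a37, the mitochondrial iron importer mitoferrin-1 (chr14:69283586-69285442), held 1059.9, 985, 1056 and 1093 in WT libraries and 622, 532 and 516 in KO libraries. All WT libraries of every treatment held 877 to 1093 and all KO libraries 374 to 622, so the genotypes did not overlap. The log2 difference was -0.92 (SE 0.08, adjusted p = 6.68e-10). An intron of Slc25a37 starting at 69256722 was also lower, at 65.9 ± 10.2 in WT and 35.5 ± 9.32 in KO (-0.89, adjusted p = 0.0265). Slc25a37 and Slc39a14 lie on chromosome 14, as does the deleted Ptger2. So do Slc39a2 (chr14:51892073) and Slc25a30 (chr14:75763452), whose PGE2 effects under stimulation differed between genotypes. Of these genes Slc39a2 lies nearest to the Ptger2 promoter peak (chr14:44988181-44990885). The part of nearby DNA from the targeted allele was not tested.

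The 4 peaks higher in KO were assigned to Slc39a14, Slc11a1, Slc44a5 and Slc6a6. All 4 also rose with PGE2 in resting WT cells. Both comparisons use the same untreated resting WT libraries, so neither bears on the other. The intergenic Slc39a14 peak held 28.5 ± 4.76 in WT and 57.4 ± 11.3 in KO (0.98, adjusted p = 0.00824). It did not pass when only the compared groups were fitted (adjusted p = 0.0581), nor without KO replicate 3. The Slc11a1 exon held 156, 243 and 217 in KO against 95.8 to 141 in WT (0.79, adjusted p = 0.0194), and the call was lost without any one of KO replicates 3 and 4 or WT replicates 1 and 2. The Slc6a6 intron held 153, 286 and 161 in KO against 106 to 127 in WT (0.78, adjusted p = 0.0196). Without KO replicate 3 that difference was 0.49 and did not pass (adjusted p = 0.282), nor did it without WT replicate 1. The Slc44a5 promoter held 24.9 ± 5.50 in WT and 48.3 ± 4.00 in KO (0.95, adjusted p = 0.0268).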

How the data were processed

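The submitters' processing notes name Trimmomatic 0.39, Bowtie2 2.4.1, the mm10 build, MACS2 2.2.7.1 and DESeq2 for the 30 ATAC-seq libraries. Duplicate handling and the transposase offset are not given in the sources used here. In the deposited table each value is a signal: the reads of a peak scaled by the authors with 1 size factor for the library. Spacing of the low values gave whole reads for 100% of values (tolerance 0.05). In 11 libraries the lowest value was more than 1 read, so recovered reads were used for the other 19 only, and count tests were run for the comparisons within these. Peak classes and genes are the table's.

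Log2(normalised count + 1) was fitted with limma 3.58.1 (R 4.3.3, trend) to 8 group means over 38525 peaks with a mean of at least 10, with Benjamini-Hochberg adjustment over all of them. All 587 Slc peaks passed this filter. Tests were two-sided. Differences are on that log2 scale, which understates the change of low peaks. The code was tested on simulated data. Genotype differences of the PGE2 or stimulation effect are WT minus KO. The comparison of untreated resting KO and WT cells is KO minus WT.

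Named peaks were the 12 called peaks with the largest differences each way per main comparison and 4 for the others, 1 per gene. Comparisons of 2 groups also required no overlap and a mean of 50 or more in the higher group. The genotype-difference and interaction tests required a mean of 50 or more in any group, with no condition on overlap. Also named were 2 genes per class by p and all peaks of 20 listed genes. Other peaks and promoters of named genes, and those given by library, were chosen after their values were seen. The members, classes and lists were chosen with earlier results of these data known. Same-numbered libraries deviated together in every pair (correlation over 0.1) for PGE2 in stimulated WT (0.118 to 0.206), resting KO (0.116 to 0.328) and stimulated KO (0.221 to 0.526), and not in the other comparisons. Alternatives were edgeR 4.0.16, DESeq2 1.42.0, other scaling, pseudocount (5) and filter (50), only the compared groups, a replicate block and leaving out each library.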

Additional observations from a re-analysis of the deposited data

Results flagged for a closer look

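Among the 18 Slc peaks given library by library, 108 groups of 4 libraries were examined for a library far from the other 3, and 8 had one. Chance gives about 1 in 20 such groups, and over all Slc peaks 186 of 3522 groups (5.28%) had one. The high libraries were one at the Slc35b2 promoter in untreated resting WT (638.9 normalised counts), one at the upstream Slc38a2 peak in untreated stimulated WT (328.9), one at the Slc25a45 promoter in stimulated KO with PGE2 (879.6) and one at the Slc6a6 intron in untreated resting WT (127.3). The low ones were at the Slc22a15 peak in resting KO with PGE2 (54.39), the Slc37a2 intron in untreated stimulated KO (386.2), the Slc11a1 exon in untreated stimulated WT (790.1) and the Slc6a6 intron in stimulated WT with PGE2 (294.5).

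The PGE2 effect differed between the genotypes by the test of the difference itself (WT effect minus KO effect, log2 scale, limma). At rest the differences with the largest positive values among the peaks named for this test were at an intron of Slc45a4 (1.876), upstream of the aromatic amino acid carrier Slc16a10 (1.793), at the Slc44a5 promoter (1.606) and at the intergenic Slc39a14 peak (1.58). The negative ones were at the Slc36a1 peak (-0.9729), a peak assigned to Slc10a7 (-0.7113), an intron of the inositol carrier Slc5a11 (-0.6699) and the Slc9a3r2 promoter (-0.5979). At the Slc44a5 and Slc39a14 peaks the difference was larger than the WT effect. Both peaks had a higher mean in untreated resting KO than in untreated resting WT, and these groups enter the difference. Under stimulation the positive ones were at the Slc39a2 promoter (1.706), an intron of Slc12a7 (1.341), the upstream Slc9a9 peak (1.213) and an intron of Slc9a7 (1.192). The negative ones were at an intergenic peak assigned to Slc30a3 (-2.162), the Slc25a30 intron (-2.055), the Slc29a3 intron (-1.732) and the Slc7a1 intron starting at 148386850 (-1.604). The start of Gm38601 lay nearer to that Slc30a3 peak (260 bp) than the start of Slc30a3 (9416 bp). For the Slc10a7 peak the start of Lsm6 was nearer (74.829 kb) than that of Slc10a7 (237 kb).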

How the results depend on the processing

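None of the 226 called results of named Slc peaks changed direction under the alternatives in which each was run. Calls were less steady: with single libraries left out, 1781 calls were kept and 138 lost over all such runs. Without replicate 2 of resting WT with PGE2, 15 calls were lost and 46 kept. Without replicate 3 of that group 14 were lost and 47 kept, and without replicate 4 9 were lost and 52 kept. The count of Slc peaks that differed between untreated resting KO and WT was the unstable one. It was 6, and became 10 by DESeq2 and 10 with the replicate block. Leaving out 1 library gave 2 to 10 (2 without KO replicate 3, 3 without KO replicate 4, 10 without KO replicate 2 and 3 without WT replicate 1). edgeR split it 3 higher and 3 lower against 4 and 2. Other counts stayed within 1.5 times. Leave-one-out ranges were 55 to 70 for PGE2 at rest in WT (main 79), 309 to 324 for stimulation of WT, 206 to 223 for PGE2 under stimulation of WT, 285 to 313 for stimulation of KO, 23 to 36 and 93 to 122 for the genotype differences of the PGE2 effect, and 121 to 154 for its dependence on stimulation. PGE2 in KO cells and the genotype difference of stimulation stayed at 0. For PGE2 at rest in WT edgeR called 85 and DESeq2 82 Slc peaks. With the replicate block the counts were 93, 348 and 265 for the 3 main comparisons. The 226 called results of named peaks all kept their call with the block over all libraries, and 218 kept it with equal totals. Untreated KO and WT share replicate numbers only (same-number correlations 0.031 to 0.042, the highest for number 2 only). edgeR and DESeq2 were not run for the other comparisons, since whole reads were accepted for 19 libraries. Library depth, 8444350 to 20153816 reads in peaks, limits the low peaks.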
